A study of Mus musculus with 9 samples.

Results

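The regions described here were 778 H3K27ac islands found at promoters of naive CD8+ T cells in wild-type mice and absent as islands from the same cells without Tcf1 and Lef1. An island is a stretch of the genome in which ChIP-seq reads exceeded the background. The members were selected on the island calls themselves. They were the islands of the WT list on chromosomes 1 to 19 that shared no base with any island of the dKO list and that lay within 1 kb of an annotated start of transcription (TSS) belonging to a protein-coding gene. They were 778 of 14780 autosomal WT promoter islands, 5.26% (95% Wilson interval 4.92 to 5.64%), and 778 of 65563 islands in the WT list. Since presence in WT and absence in dKO chose them, neither is a finding, and the values below describe what these islands were like. WT mice carried hCD2-Cre, the Rosa26 GFP reporter and intact Tcf7 and Lef1 alleles, and dKO mice carried the same transgene and reporter with floxed alleles of Tcf7 and Lef1 that the Cre deleted. The hCD2 promoter drives Cre in T cells, with most activity in mature ones. Excision ranged from 80% to 95% per the study's methods, and GFP+ cells were therefore sorted in both genotypes. Mice were 6 to 12 weeks old, of both sexes and on the C57BL/6 background, and the sorted splenic cells were TCRβ+ CD8+ with high CD62L and low to medium CD44. Chromatin was precipitated with an antibody to H3K27ac from 4 WT and 3 dKO samples, with 1 input sample for each genotype. The replicates of a genotype had been pooled before islands were called, so nothing below could be tested or checked across replicates.

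H3K27ac is the acetylation of lysine 27 on histone H3, deposited by p300 and CBP at active promoters and enhancers. Promoters come in broad kinds: CpG-rich promoters, which serve housekeeping genes and many developmental regulators, and CpG-poor promoters, which serve many tissue-restricted genes. Tcf1 and Lef1, encoded by Tcf7 and Lef1, are HMG-box factors that bind the Tcf/Lef motif and maintain T cell identity. A promoter island that is present in 1 genotype can sit at the main start of a silent gene, or at an internal start of a gene whose main promoter is acetylated in both.

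Both CpG-rich and CpG-poor promoters were found among the members. The sequences below give the 250 bases before the TSS, read from the mm9 genome in the direction of the gene, in windows that hold no annotated exon. All were chosen because they hold a searched motif, so the presence of a motif in them is not a finding. The first 3 are CpG-rich promoters among the 10 members with the most counts, and each holds a GC box. The other 2 belong to members whose genes are on the study's list of genes downregulated in dKO cells. Capitals mark matches, on either strand, to the GC box GGGCGG, the ETS core CGGAAG, the Tcf/Lef core ATCAAAG or the TATA element TATAAA.
Gm9885, chr7:85723466-85723715, plus strand: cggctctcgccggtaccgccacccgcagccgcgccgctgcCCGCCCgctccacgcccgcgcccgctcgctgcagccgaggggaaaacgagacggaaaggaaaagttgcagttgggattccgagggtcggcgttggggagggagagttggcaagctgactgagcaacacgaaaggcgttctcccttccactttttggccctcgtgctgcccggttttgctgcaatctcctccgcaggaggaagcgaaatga
Elfn1, chr5:140383647-140383896, plus strand: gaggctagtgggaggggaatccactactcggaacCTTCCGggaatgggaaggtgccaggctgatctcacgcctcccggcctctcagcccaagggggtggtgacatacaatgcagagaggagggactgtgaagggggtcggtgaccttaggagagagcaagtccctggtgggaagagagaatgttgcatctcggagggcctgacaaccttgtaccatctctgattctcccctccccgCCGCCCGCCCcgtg
Neurl1b, chr17:26551660-26551909, plus strand: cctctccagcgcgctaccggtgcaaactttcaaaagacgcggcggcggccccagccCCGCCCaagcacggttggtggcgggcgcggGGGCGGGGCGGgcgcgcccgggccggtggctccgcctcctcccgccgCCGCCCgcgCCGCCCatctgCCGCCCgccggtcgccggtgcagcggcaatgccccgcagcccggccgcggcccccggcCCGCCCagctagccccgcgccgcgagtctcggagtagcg
Inpp4b, chr8:84380017-84380266, plus strand: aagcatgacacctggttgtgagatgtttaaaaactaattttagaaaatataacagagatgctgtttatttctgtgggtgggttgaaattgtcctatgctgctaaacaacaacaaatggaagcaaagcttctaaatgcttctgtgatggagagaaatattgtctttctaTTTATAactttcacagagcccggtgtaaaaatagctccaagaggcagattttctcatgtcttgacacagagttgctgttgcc
Gm14085, chr2:122310427-122310676, plus strand: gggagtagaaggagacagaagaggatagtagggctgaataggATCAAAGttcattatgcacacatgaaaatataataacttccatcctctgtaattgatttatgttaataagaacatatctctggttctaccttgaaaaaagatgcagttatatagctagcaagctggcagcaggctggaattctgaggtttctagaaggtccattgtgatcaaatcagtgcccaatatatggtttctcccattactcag
The Neurl1b window, before a gene for a ubiquitin ligase of the Notch pathway, held 7 GC boxes, some of them overlapping. The Elfn1 window held 2 overlapping GC boxes and 1 ETS core. The internal TSS of Inpp4b, a phosphoinositide phosphatase, had an AT-rich window with TATAAA starting 82 bases before the TSS. The Gm14085 window was the sole window of the 5 with a Tcf/Lef core, which started 208 bases before the TSS. This window lay outside the member island, chr2:122308001-122309800, which ended before the window began. The Tcf/Lef core was therefore not within the acetylated island.

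The WT list held 65563 islands with 82668007 counts and the dKO list 82213 islands with 57665047 counts, which averaged 210.5 counts for each kb of island in WT and 134.3 in dKO. The labelled cell type was checked against its markers. Cd3e, Cd3d, Cd8a, Cd8b1, Lck and Zap70 each had promoter islands in both lists, and no marker gene examined had a member island. Of the markers of other cells, Cd4, Zbtb7b, Cd79a, Klrb1c, Lyz2, Csf1r and Itgam also had promoter islands in both lists, Pax5 had one in the dKO list alone, and Ncr1 had none in either. Mixed-in cells and acetylation within CD8+ T cells cannot be told apart in these bulk samples.

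The members were narrow and shallow islands. Their counts ranged from 66 to 5819 with a median of 302 and quartiles of 217 and 455, and their width ranged from 200 to 31200 bp with a median of 2400 bp. In contrast, the 14002 WT promoter islands that overlapped a dKO island had a median of 1946 counts and 6200 bp. Depth, the counts of an island per kb of its width, had a median of 135 counts per kb in the members (quartiles 117 and 158) and 266 counts per kb in the shared promoter islands (170 and 410). All members together held 307049 counts, 0.371% of the counts of the WT list. Of the WT promoter islands with 100 to 150 counts per kb, 491 of 3045 had no dKO island, 16.1% (14.9 to 17.5%), against 5 of 5978 with 300 or more counts per kb, 0.0836% (0.0357 to 0.196%). By width the share ran from 80 of 207 islands of up to 1 kb, 38.6% (32.3 to 45.4%), to 24 of 5331 over 8 kb, 0.450% (0.303 to 0.669%). A wider island has more bases at which a dKO island can overlap it, so the overlap rule itself favours narrow members. The part of the rule in this fall was not tested. Away from promoters, 17.3% of 49735 autosomal WT islands had no overlapping dKO island, and those had a median depth of 122 counts per kb. In the opposite direction, 10.4% of 15621 autosomal dKO promoter islands overlapped no WT island, and these 1626 islands had a median of 226 counts over 2600 bp.

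**Figure D1:**
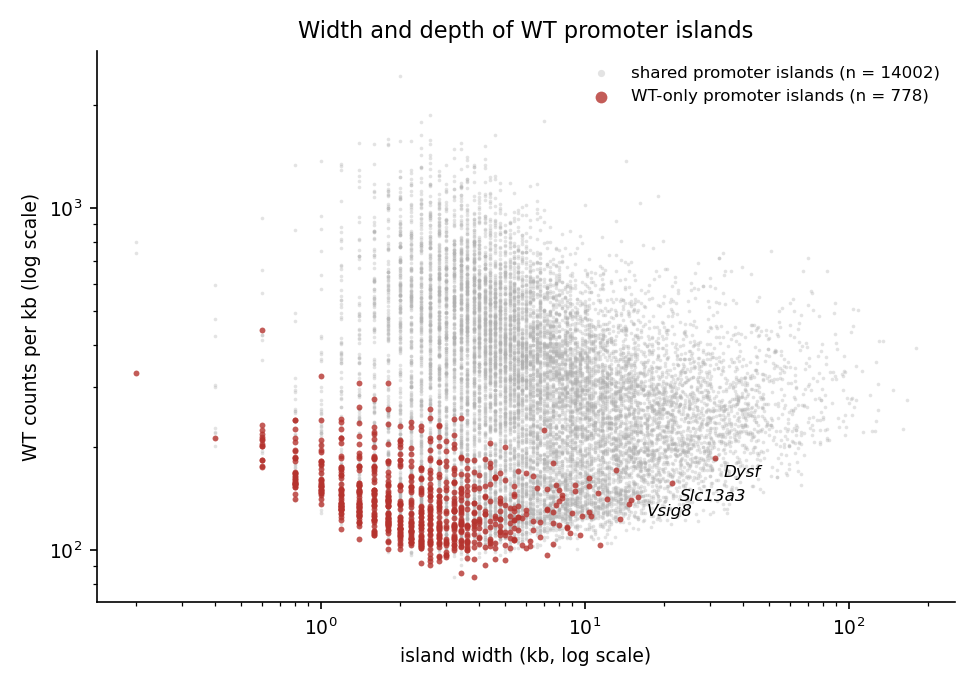
Each point is 1 autosomal WT promoter island, by its width in kb and its WT counts per kb, both on log scales. The 778 members (red) lie along the lower edge of the 14002 islands shared with dKO (grey), with medians of 135 and 266 counts per kb, and the 3 members with the most counts are named.

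Absence from the dKO list means that no island was called, and the dKO list held fewer counts within its islands. Each member's WT depth was therefore multiplied by 0.638, the ratio of the mean depths of the lists, and set against dKO islands of exactly the same width, of which there were at least 24 for every member. The scaled depth reached that of the shallowest dKO island of its width for 761 of the 778 members. It reached the 5th percentile of these dKO islands for 553 members, 71.1% (67.8 to 74.2%), and their median for 238 members, 30.6% (27.5 to 33.9%). Islands of both lists had passed the same calling settings, and these shares were not computed for shared promoter islands, so they have no benchmark. In 225 members the scaled depth was thus under the 5th percentile, and in 184 members when the mean depths were taken over shared islands alone. Either ratio compares counts within islands and not sequencing depth. The part of the detection limit in the absence of dKO islands was not tested. At the other end, 29 members had a scaled depth of at least 1.5 times the dKO median of their width, and 22 of these 29 had a CpG-rich promoter. The 3 with the highest ratio, named after their values were seen, were Gm4980, Ccnt2 and Pnpla8, with ratios of 2.18, 2.09 and 2.05. Ccnt2 encodes cyclin T2, a subunit of the elongation factor P-TEFb, and Pnpla8 encodes a phospholipase, and both had another TSS in a shared island or within 1 kb of one.

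**Figure D2:**
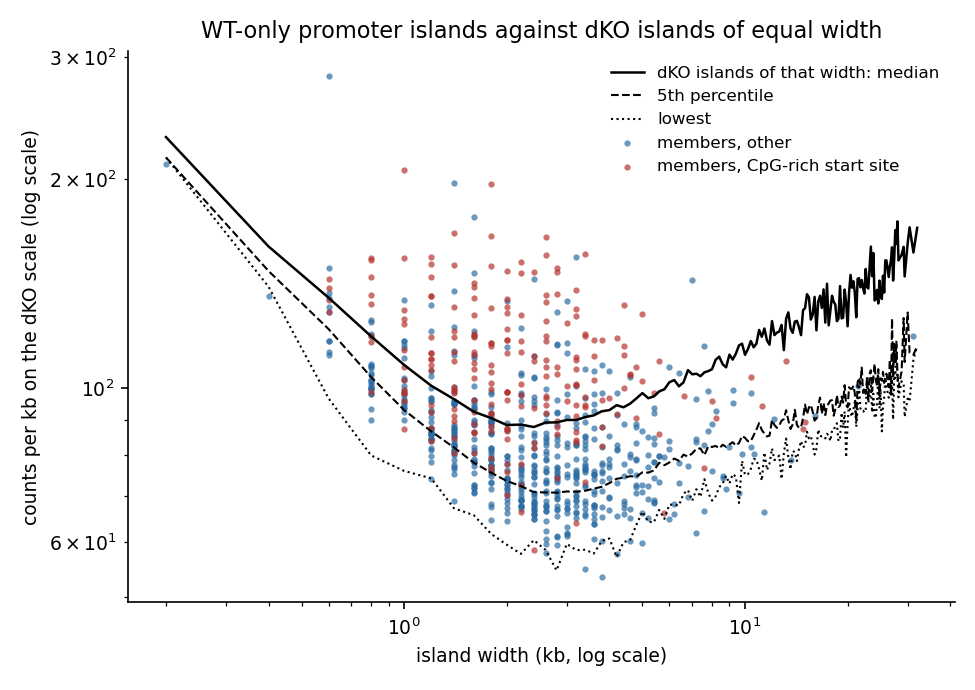
Each point is 1 member, by its width in kb and its WT depth scaled to the dKO list by the mean depths, in counts per kb, both on log scales. Lines give the median, the 5th percentile and the lowest depth of dKO islands of the same width, and 146 of 211 members with a CpG-rich promoter (red) against 92 of 567 others (blue) reach the median.

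The member with the most counts was an island at an internal TSS of Dysf, the gene of the membrane repair protein dysferlin mutated in muscular dystrophy. It spanned chr6:84156001-84187200 in mm9, 31.2 kb, with 5819 counts, and the nearest dKO island lay 11.8 kb away. Dysf had 2 further members, with 1434 and 132 counts, and no shared promoter island. Slc13a3, a dicarboxylate carrier of the kidney, followed with 3380 counts over 21.4 kb, 1 kb from a dKO island. Vsig8 had 2286 counts, Gm9885 had 2262, and Elfn1, which encodes a synaptic adhesion protein, had 2101. Fbln1, encoding the matrix protein fibulin-1, had 2023 counts. Cacna1i and Cacng4, which encode subunits of voltage-gated calcium channels, had 1727 and 1653 counts. Neurl1b had 1692 counts and Pcnxl2 had 1681. These 10 islands were wide, from 10.4 to 31.2 kb, at depths of 124 to 187 counts per kb, and together they held 8.02% of the counts of all members. In all 10 the nearest TSS lay inside the island, 5 had a CpG-rich promoter, and 3 genes had another TSS within 1 kb of a shared island. Relative to depth, the order differed. Among members of at least 1 kb the deepest were Sh3bgrl2 with 323 counts per kb, Pnpla8 with 309, Gm4980 with 309, Actr3b with 276 and A830073O21Rik with 262. Sh3bgrl2 encodes a thioredoxin-like protein, and Actr3b is a relative of the actin nucleator Arp3. Each of these 5 held 323 to 556 counts over 1 to 1.8 kb.

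The members had 724 different nearest genes, and 49 genes had 2 or more members, the most being 4 at Lrrc16a. The nearest TSS lay inside the island in 571 members, 73.4%, against 94.3% (93.9 to 94.7%) of shared promoter islands. The shared promoter islands were wider, and this comparison was not matched for width. The island lay downstream of the TSS in 114 members and upstream in 93. The nearest TSS was the outermost of its gene in 315 members, 40.5% (37.1 to 44.0%), against 46.0% (45.2 to 46.8%) of shared promoter islands and 24.7% (22.7 to 26.9%) of promoter islands found in dKO alone. For 341 members, 43.8% (40.4 to 47.3%), the gene had another TSS within 1 kb of a shared island, a WT island that overlapped a dKO island. The overlapping dKO island was not itself required to lie within 1 kb of that TSS. The other 437 members had no such TSS. This share was not computed for shared or dKO-only promoter islands, so the 43.8% has no benchmark. Counted over genes, 738 of 13700 autosomal protein-coding genes with a WT promoter island had a WT-only one, 5.39%, and in 410 of them, 2.99%, no promoter island was shared. Moreover, 78 of the 738 genes also had a promoter island in dKO alone, against 1416 of all 21418 autosomal protein-coding genes, 6.61%.

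The distance to the nearest dKO island varied widely. Its median was 6 kb, with quartiles of 1.6 and 19.4 kb, and the largest was 1554.4 kb at Auts2, a neurodevelopmental gene. The median was 9600 bp when the outermost TSS of each gene was used alone, and 9400 bp when islands within 1 kb of a dKO island were left out. In 153 members, 19.7% (17.0 to 22.6%), a dKO island lay within 1 kb, and in 298, 38.3% (34.9 to 41.8%), none lay within 10 kb. WT-only islands away from promoters were nearer to dKO islands, with a median of 3.2 kb, and 23.6% (22.8 to 24.6%) of these 8618 lay more than 10 kb away. For 57 members a dKO island lay within 1 kb of the same TSS, and for 16 of them the TSS was inside it, so the label of a promoter acetylated in WT alone goes against the data for these. In the WT list, 397 members stood between neighbours that both overlapped dKO islands, and 381 were in a run of 2 or more WT-only islands, the longest of which had 25. At the limits of the rule, the islands at 9230112E08Rik (1064 counts), Helz (654 counts) and Antxr1 (601 counts) directly adjoined a dKO island. On the other side, Tnfsf15 (898 counts), Acss1 (637 counts) and Insc (623 counts) overlapped dKO islands by 200 bp and were not members. For the distance to a TSS, BC055111, Phldb2 and Dcst1 were the members farthest from one, at 1000, 996 and 984 bp, and islands 1006 bp from Bcas3 and Tstd2 and 1010 bp from 1700025F22Rik were not members.

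**Figure D3:**
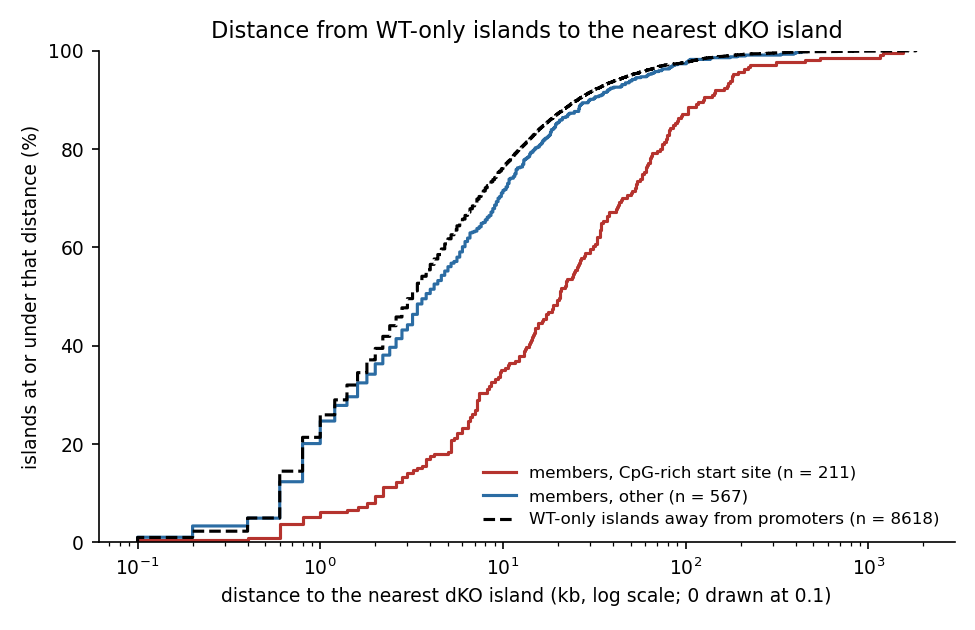
The lines give the percentage of WT-only islands at or under each distance, in kb on a log scale, to the nearest dKO island. The 211 members with a CpG-rich promoter (red) have a median of 20.4 kb, the 567 other members (blue) 3.8 kb, and the 8618 WT-only islands away from promoters (dashed) 3.2 kb.

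The members then separated by the sequence of their promoters, which the rule did not use. A promoter was called CpG-rich when the 1 kb around the TSS had an observed to expected CpG ratio of at least 0.6 and a GC content of at least 50%. This held for 211 of 778 members, 27.1% (24.1 to 30.4%), for 49.2% (48.4 to 50.03%) of shared promoter islands and for 56 of 1626 promoter islands found in dKO alone, 3.44% (2.66 to 4.45%). Of 20016 TSSs without an island in either list, 13.8% (13.3 to 14.3%) were CpG-rich. CpG-rich promoters were more frequent at deep islands in every set, so the sets were compared at like depth, taken relative to the mean of the own list. Between 0.75 and 1 times that mean, 87 of 152 members were CpG-rich, 57.2% (49.3 to 64.8%), against 28.2% (26.4 to 30.2%) of 2161 shared promoter islands and 7.17% (4.64 to 10.9%) of 265 islands found in dKO alone. Between 0.5 and 0.75 times the mean the shares were 16.7% (13.7 to 20.2%), 5.34% (4.57 to 6.22%) and 2.36% (1.67 to 3.33%). At or above the mean, where most shared promoter islands lay, the intervals of members and shared islands overlapped, with 34 of 47 members, 72.3% (58.2 to 83.1%), 69.0% (68.0 to 69.9%) of 8879 shared islands and 6 of 25 dKO-only islands (11.5 to 43.4%). Under 0.5 times the mean, 4 of 64 members, 1 of 95 shared islands and 0 of 21 dKO-only islands were CpG-rich. The GC content of the 1 kb at the centre of the island had a median of 48.7% in members and 46.9% in dKO-only promoter islands. Away from promoters the order was opposite, with 43.8% in WT-only and 44.9% in dKO-only islands. These intervals cover counting error of islands, and with 1 pooled list per genotype the part of library base composition in this pattern was not tested. The sets were not matched for width, with medians of 2400 bp in members, 6200 bp in shared and 2600 bp in dKO-only promoter islands. Where several TSSs lay in an island, the one nearest its midpoint was scored. The part of width and of this choice in the pattern was not tested.

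**Figure D4:**
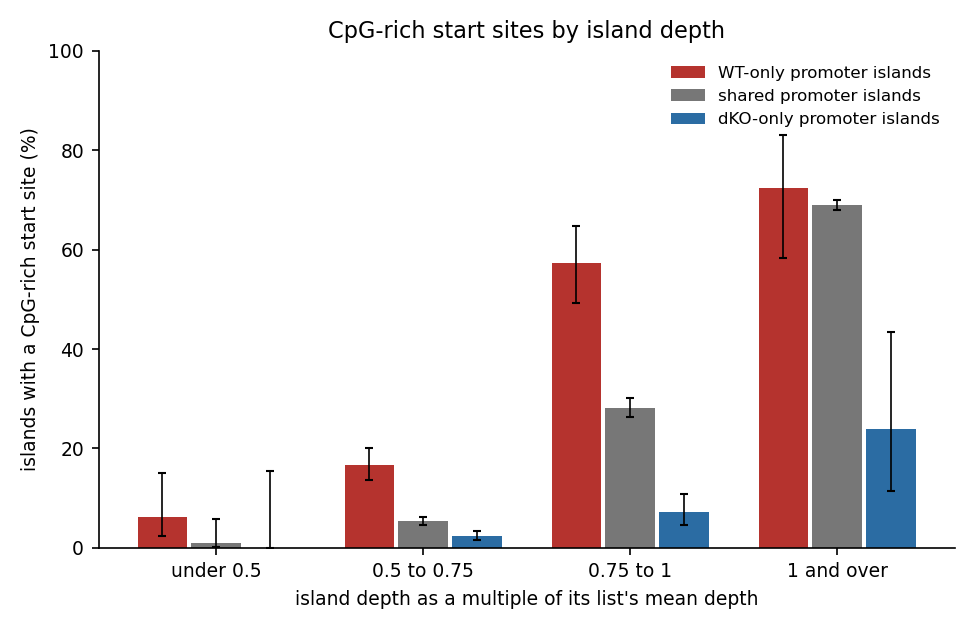
Bars give the percentage of promoter islands whose nearest TSS is CpG-rich, with 95% Wilson intervals, for members (red), shared promoter islands (grey) and islands found in dKO alone (blue), in 4 bins of depth relative to the mean of the list. Between 0.75 and 1 times the mean the bars stand at 57.2%, 28.2% and 7.17%.

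The CpG-rich members differed from the rest in further measures. Their median depth was 167 counts per kb against 126 in the other 567, and 146 of 211, 69.2%, reached the median depth of dKO islands of their width against 92 of 567, 16.2%. Of the CpG-rich members, 137 of 211, 64.9%, had no dKO island within 10 kb, against 161 of 567 others, 28.4%. The TSS lay inside the island in 196 of the 211, and was the outermost TSS of the gene in 123. A second TSS with a shared island was found for 39 of 211 CpG-rich members, 18.5%, and for 302 of 567 others, 53.3%. Most CpG-rich members lay at the outermost start of their gene and most had no other shared start, whereas most of the other members lay at internal starts, at a median of 3.8 kb from a dKO island.

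Among motifs in the 300 bases from 250 before to 50 after the TSS, counted on both strands, the Tcf/Lef core ATCAAAG was found in 27 members, 3.47%, against 2.76% of shared promoters, 4.61% of dKO-only promoters and 3.13% of all 67114 autosomal TSSs. The GC box GGGCGG was found in 33.7% of members, 48.3% of shared, 10.9% of dKO-only and 40.4% of all. The ETS core CGGAAG was found in 10.3% of members, 23.7% of shared, 6.40% of dKO-only and 20.1% of all. TATAAA followed the reverse order, with 14.7%, 8.61%, 19.4% and 11.2%. The RUNX core TGTGGT was found in 14.3% of members, 15.2% of shared, 20.3% of dKO-only and 15.7% of all, and the AP-1 site TGAGTCA in 4.50%, 4.19%, 6.21% and 4.35%. None of the motifs contains another, though GGGCGG and CGGAAG can share the letters CGG, and a match is a match of letters only.

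To see which genes the members served, families fixed by gene symbol were counted. In each case the share is of the family's genes with a WT promoter island, to be read against 5.39% of all genes. Voltage-gated and other ion channels, largely genes of excitable cells, had WT-only promoter islands at 16 of 84 genes, 19.05% (12.1 to 28.7%), and in 11 of them no promoter island was shared. Beside Cacna1i and Cacng4, the channel genes with members included Cacna1b, encoding an N-type calcium channel, with 1114 counts, and Trpv4, encoding a cation channel that senses osmotic stress, with 680 counts. Of these 4 genes, Cacng4 alone had no other TSS at a shared island. Developmental transcription factors had them at 12 of 70 genes, 17.1% (10.1 to 27.6%), and none of the 12 had a shared promoter island. Their 13 islands held 180 to 648 counts, 9 were CpG-rich, and 11 lay more than 10 kb from a dKO island. Lhx6, a regulator of interneurons, had 648 counts. Sox30, a factor of spermatogenesis, had 633 counts. Foxq1 had 627 counts and lay 313.4 kb from the nearest dKO island. Hoxb9, Hoxb5, Hoxb2 and Hoxd8 were also members. Counted over all autosomal genes of a family, 9.36% of ion channel and 6.98% of developmental factor genes had a WT-only promoter island. That share was 3.45% over all autosomal protein-coding genes. Promoter islands in dKO alone were found at 8.19% and 6.98% of the same family genes, against 6.61% of all autosomal protein-coding genes. Among genes with a WT promoter island, the other families were nearer to the share of all genes. Wnt pathway genes had 3 of 29, all CpG-rich ligands without a shared promoter: Wnt11 with 803 and 477 counts, Wnt3 with 579 and Wnt6 with 186. Small GTPases and their regulators had 9 of 99, with Arhgap20, Arhgef37 and Arhgap29 at 424, 397 and 368 counts. Solute carriers had 15 of 242, 6.20% (3.79 to 9.97%), with Slc13a3, the bicarbonate transporter Slc4a4 at 1343 and the glutamate transporter Slc1a7 at 1089 counts.

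The cytokine system had WT-only promoter islands at 8 of 124 genes, 6.45% (3.30 to 12.2%), and none was CpG-rich. Il3, encoding a growth factor of myeloid progenitors, had 397 counts, Il31, encoding a cytokine of itch, had 347, Il23r, encoding a receptor chain of IL-17-producing cells, had 305, and Il21, encoding a cytokine of helper T cells, had 253. Of these, Il3, Il31 and Il23r lay 0.8, 0.6 and 1 kb from a dKO island. Matrix and adhesion genes had 6 of 78, among them Adamts7 and Adam30 with 523 and 438 counts. G-protein-coupled receptors had 5 of 86, with Chrm3, a muscarinic receptor, at 474 counts and Gpr153 at 451. Cadherins had 1 of 16, Cdh3 with 461 counts. Zinc finger genes named Zfp had 8 of 293, 2.73% (1.39 to 5.29%), led by Zfp541 with 515 counts. Housekeeping complexes had 3 of 280, 1.07% (0.365 to 3.10%), and each had a shared promoter island as well. They were the proteasome subunits Psma6 and Psma8, with 258 and 129 counts, and Rps6ka2, a kinase that the symbol prefix placed in the family, with 228 counts. WT promoter islands had a median of 164 counts per kb at ion channel genes, 186 at developmental factors, 417 at housekeeping genes, 335 at Zfp genes and 254 at all genes. G-protein-coupled receptors, at 185 counts per kb, had a share of 5.81% (2.51 to 12.9%), and matrix and adhesion genes, at 173, one of 7.69% (3.57 to 15.8%). The cytokine system, at 174, had 6.45% (3.30 to 12.2%), and cadherins, at 146, had 6.25% (1.11 to 28.3%). Each of these intervals overlapped those of ion channels and developmental transcription factors. The part of depth in the shares was not tested.

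Of the T cell lists below, all but the effector CD8 list had an interval that included the 5.39% of all genes. At these numbers, their shares were not distinguishable from it. Of 34 T cell genes, including the CD3 chains, Cd8a, Lck, Ccr7, Il7r and Bcl11b, all had a WT promoter island and 0 had a WT-only one, which allows a share of up to 8.82% taken as 3 of 34 genes, or 10.15% as the upper Wilson limit. Their WT promoter islands had a median of 376 counts per kb. Of the study's pan-T lineage-enriched genes, 6 of 141 had one, 4.26% (1.97 to 8.97%), and all 6 also had a shared promoter island. They were Inpp4b (515 and 216 counts), Rapgef4 (337), Klhl3 (262), Tox (259), Ift80 (233) and Gm14085 (222), and each of these 7 islands lay within 4.2 kb of a dKO island. Tox encodes a nuclear factor of T cell development. The naive CD8 list had 3 of 43, namely Rapgef4, Depdc1b (299 counts) and the NK receptor gene Klrd1 (128 counts). The naive CD4 list had 3 of 29, namely Rnf32 (694 and 422 counts), Myo10 (602) and Arhgap29. The effector CD8 list had 7 of 285, 2.46% (1.195 to 4.98%), an interval below the 5.39% of all genes. It was led by Crmp1, Med12l and Kif18a with 259, 259 and 247 counts. The Treg list had 10 of 125, led by Bcam, Tmem158 and Wnt3 with 779, 653 and 579 counts, and the gamma-delta T list 21 of 307, led by Kit, Nebl and Nav1 with 1185, 546 and 457 counts.

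The study's B cell, pan-NK, granulocyte, cDC, monocyte and pDC lists accounted for 109 members at 104 genes. These lists overlap the T cell lists. Tox and Klhl3 were also on the pan-T list, and Depdc1b and Klrd1 were also on the naive CD8 list. No such total was computed for shared promoter islands, so the 109 members have no benchmark. The share was 17 of 152 for cDC genes, 11.2% (7.10 to 17.2%), 17 of 161 for monocyte genes, 10.6% (6.70 to 16.3%), and 18 of 182 for pDC genes, 9.89% (6.35 to 15.1%). It was 37 of 417 for granulocyte genes, 8.87% (6.51 to 11.99%), 17 of 212 for B cell genes, 8.02% (5.07 to 12.5%), and 13 of 193 for pan-NK genes, 6.74% (3.98 to 11.2%). Among cDC genes, Kit, the receptor of stem cell factor, had 1185 counts, and Zbtb46, a transcription factor of classical dendritic cells, had 778, with Neurl1b the highest. The scaled depth of the Kit island, 66.3 counts per kb, was under that of the shallowest dKO island as wide, 80.8 counts per kb. Zbtb46 lay 0.6 kb from a dKO island, and 10 of the 17 cDC members lay more than 10 kb from one. Granulocyte genes were led by Tlr5, the flagellin receptor, with 1010 counts, Gramd2 with 769 and F3, encoding tissue factor, with 607. Tlr5 lay 0.2 kb from a dKO island, and 19 of the 38 granulocyte members lay more than 10 kb from one. Adora2b, Cd300lb and Ifi27l2b led the monocyte genes with 682, 490 and 466 counts. Nav2, Gnb4 and the Notch ligand gene Dll1 led the pDC genes with 790, 698 and 690 counts. Atp9a, Gnaz and Rhpn2 led the B cell genes with 831, 771 and 653 counts, and Dpysl5, Nebl and Clip3 the pan-NK genes with 661, 546 and 411. The WT promoter islands of these 6 lists were shallower than those of all genes, with medians from 179 counts per kb in cDC genes to 214 in B cell genes. Promoter islands in dKO alone were found at 4.92% of the autosomal genes of the B cell list, 7.11% of pan-NK, 8.20% of pDC, 8.77% of monocyte, 8.96% of granulocyte and 10.4% of cDC genes, against 6.61% of all autosomal protein-coding genes.

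**Figure D5:**
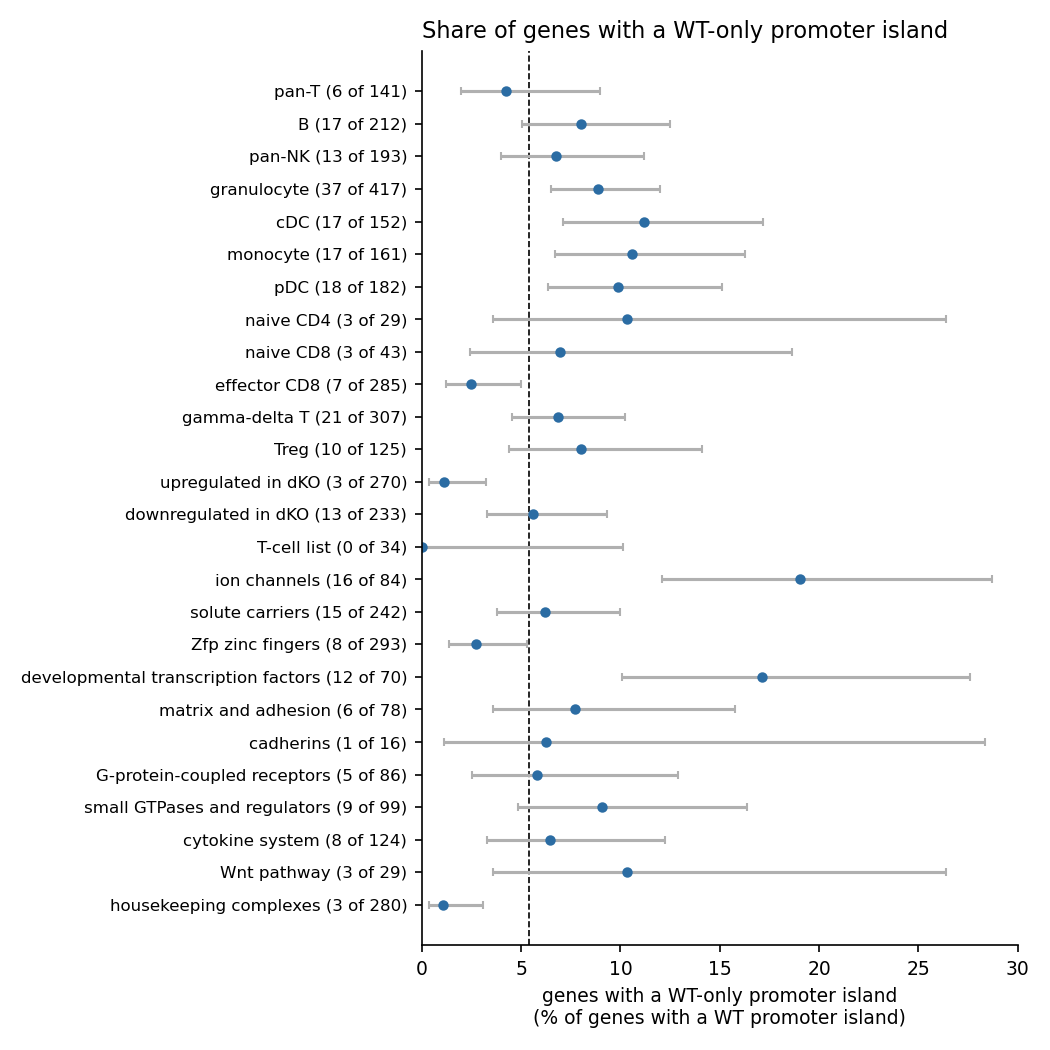
Each point gives the percentage of a list's genes with a WT promoter island that have a WT-only one, with its 95% Wilson interval and, in brackets, the counts of genes. The dashed line marks 5.39%, the share of all autosomal protein-coding genes, and ion channels at 19.05% and developmental transcription factors at 17.1% lie farthest above it.

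The members were next set beside the genes that the study listed as changed in dKO cells by RNA-seq. These lists were read as names, and no expression value was used. Of the downregulated genes with a WT promoter island, 13 of 233 had a WT-only one, 5.58% (3.29 to 9.31%), near the 5.39% of all genes. Of the upregulated genes, 3 of 270 had one, 1.11% (0.379 to 3.21%). Promoter islands in dKO alone were found at 30 of 287 upregulated genes, 10.5%, at 18 of 237 downregulated genes, 7.59%, and at 6.61% of all autosomal protein-coding genes. The 13 downregulated genes had 14 members, and for 10 of these the gene had another TSS with a shared island. The remaining 4 were Atp9a, Gnb4, Ppic and App, all CpG-rich, whose genes had no other TSS at a shared island. Atp9a, encoding a phospholipid flippase, had 831 counts at 244 counts per kb, and the nearest dKO island was 87.8 kb away. App, encoding the amyloid precursor protein, had 467 counts at 259 counts per kb over chr16:85172601-85174400, and the nearest dKO island was 175.6 kb away. Its scaled depth was 1.83 times the median of dKO islands as wide. Gnb4, encoding a G protein beta subunit, had 698 counts at 184 counts per kb, 13.8 kb from a dKO island. Ppic, encoding cyclophilin C, had 510 counts at 196 counts per kb, 168.0 kb from a dKO island.

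Of the 10 others, Ralb, encoding a small GTPase, had the most counts, 1191 over 8.2 kb. Inpp4b had 515 and 216 counts at a pair of internal starts and 53 dKO islands along its gene. Zscan12 had 407 counts, Arhgap29, encoding a GTPase-activating protein, 368, Casz1, encoding a zinc finger factor, 239, and Ift80, encoding a protein of ciliary transport, 233. Gm14085 had 222, Pemt, encoding an enzyme of phosphatidylcholine synthesis, 190, and Pam, encoding a peptide-amidating enzyme, 126. The upregulated genes with members were Dennd5a with 988 counts over 8.8 kb, Depdc1b with 299 and Faim3, encoding the Fc receptor for IgM, with 157. All 3 also had another TSS at a shared island. The scaled depth of the Dennd5a island, 71.6 counts per kb, was under that of the shallowest dKO island as wide, 74.8 counts per kb.

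The members were also set against regions that the study listed as differing between the genotypes. The lists used hold the regions that the study linked to genes and need not hold every such region, and on autosomes they had 131, 79, 11 and 97 accessible sites of clusters 1 to 4, 48 WT-prepotent and 88 dKO-prepotent super enhancers, and 47 WT-specific and 35 dKO-specific hubs. Of the listed sites of chromatin accessibility, clusters 1, 2 and 3 held 0 members among 46, 35 and 5 overlapping WT promoter islands, and cluster 4 held 1 of 47, the Atp9a promoter. The listed WT-prepotent super enhancers, which the study had chosen on H3K27ac in these samples, overlapped 14 members among 277 WT promoter islands, 5.05%, close to the 5.26% of all. The 5 with the most counts were Crhbp with 663, Gm9234 with 564, the homeobox gene Cdx2 with 557, Hephl1 with 542 and 4933427G17Rik with 531. The listed dKO-prepotent super enhancers overlapped 6 members among 509 WT promoter islands, 1.18%, led by Fam185a and Rgs9 with 323 and 321 counts and followed by Gm10397 and 1700012B07Rik. Of the listed chromatin hubs, WT-specific ones held 3 members among 151, at Inpp4b, Tnni1 and Pemt, and dKO-specific ones 3 among 117, at 2310044H10Rik, Cdc42ep5 and Napsa.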

How the data were processed

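H3K27ac ChIP-seq was analysed from 4 WT and 3 dKO samples of naive CD8+ T cells, and the input samples carried no values used here. The authors aligned reads to mm9 with Bowtie2 (version 2.2.5, per the labels), kept unique alignments scoring over 10 in mapping quality, merged the reads of each genotype and called islands with SICER version 1.1 (window 200 bp, gap 400 bp, FDR 0.01). The deposited values are read counts per island, whole numbers scaled neither for depth nor for width, in 2 lists. Where no island was called, the lists give no count. The list totals are sums over islands and not sequencing depth.

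Coordinates were counted from 1. TSSs of all transcripts of protein-coding genes were taken from GENCODE vM1 on NCBIM37, which is mm9. A member's gene was that of the nearest TSS (0 inside the island, ties by distance to its midpoint). Symbols of the study's lists absent from GENCODE were matched through synonyms in a RefSeq table of GRCm38.p6, used for names only. Named genes were the 10 members with the most counts, the 5 deepest of at least 1 kb, members on the study's gene lists and region lists, the leading members of symbol families, and those at the limits of the rule. The members, lists and alternatives were chosen with earlier results of these data known. Wilson intervals (95%) cover counting error only, and reads are not independent molecules. Islands are not replicates of a genotype, and no test or p-value was computed. Overlap was tested on simulated intervals. Python 3 with numpy, pandas, SciPy and matplotlib was used.

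Alternatives changed the overlap rule, the distance to and choice of TSS, count filters, the chromosomes, the CpG and motif settings and the scaling. Some genes and a sequence are not reported here.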

Additional observations from a re-analysis of the deposited data

How the results depend on the processing

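No paired analysis was possible because the replicates had been pooled in the deposited lists. The number of members, 778, ranged from 571 to 1017 under 9 of 11 alternatives. Requiring 50% reciprocal overlap with a single dKO island gave 4597 islands and 31.1% of WT promoter islands, since it also counts islands whose borders differ, and using the outermost TSS of each gene alone gave 429 and 3.78%. The share, 5.26%, was 4.74% and 4.23% when no dKO island was allowed within 600 bp or 1 kb, and 4.14%, 4.71% and 6.22% when the TSS had to lie inside the island, within 500 bp or within 2 kb. It was 4.52% with protein-coding transcripts only and 4.32% with WT islands of at least 200 counts. With the outermost TSS alone, CpG-rich members made up 43.8% in place of 27.1%, and members of the downregulated list numbered 6 in place of 14. An observed to expected CpG ratio of at least 0.75 gave 15.7%. Members of the upregulated list numbered 0 to 5. The median distance to the nearest dKO island, 6 kb, was 9400 bp with no dKO island within 1 kb and 9600 bp with the outermost TSS alone. The scaled depth reached the lowest dKO depth for 767 members when scaled over shared islands. The smallest member islands hold under 100 counts, and replicate spread could not be estimated.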

Other observations

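Chromosome X was left out of the members. There, 38 of 381 WT promoter islands overlapped no dKO island, 9.97% (95% Wilson interval 7.35 to 13.4%), against 5.26% on the autosomes, and 3 of 344 dKO promoter islands overlapped no WT island, 0.872%, against 10.4% on the autosomes. The 38 islands had a median of 256 counts and 159 counts per kb. Mice of both sexes were used, and the sexes of the pooled samples were not analysed here.

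Among autosomes, the share of WT promoter islands without a dKO island ran from 3.01% on chromosome 17 (22 of 730) to 6.68% on chromosome 14 (34 of 509). Several genes had more than 1 member: Lrrc16a had 4 islands with 1433 counts in all, Podn, encoding a matrix proteoglycan, had 3 with 2909, and Slc4a4 had 3 with 2239. The longest run of neighbouring WT-only islands that held a member had 25 islands.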
